A study of Arabidopsis thaliana with 6 samples.

Results

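The potato inhibitor I family of Arabidopsis thaliana is represented here by 6 loci, AT2G38870, AT2G38900, AT3G46860, AT3G50020, AT5G43570 and AT5G43580 (UPI, unusual serine protease inhibitor). They were taken by locus identifier, each had 1 feature on the array, and together they make up 6 of 37118 features. The family was chosen by the log2 difference of AT2G38900 between the MYBPAR and empty vector lines of these same data, so the values of that gene are given as a description with no test. The other 5 members belong to the family by protein type and not by a measured value. Probe sequences were not used here, so whether the probes of one member also bind the transcript of another was not tested.

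RNA came from whole plants of the Columbia ecotype, which had grown for 3 weeks on agar with 30 mg/l kanamycin at 22 °C with 16 h of light per day. The study set 3 lines transformed with 35S::VvMYBPAR, a grapevine MYB transcription factor driven by the constitutive 35S promoter, against 3 lines transformed with the empty vector. MYBPAR replicates 1, 2 and 3 are lines PAR18-2, PAR9-2 and PAR36-4, and empty vector replicates 1, 2 and 3 are lines Cont1-1, Cont2-3 and Cont5-1. Every line was a separate transformant with 1 array, so line, culture and array cannot be told apart. The features carry Arabidopsis loci, and the level of the grapevine transcript in each line was not analysed here.

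Potato inhibitor I proteins are small inhibitors of serine proteases of the chymotrypsin and subtilisin types, and they bind the protease through an exposed loop that resembles a substrate. In tomato and potato they accumulate after wounding and insect attack, and the family is counted among the pathogenesis-related proteins as PR-6. In Arabidopsis, plants that lack UPI are more susceptible to necrotrophic fungi and to a leaf-eating caterpillar.

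Values are log2 RMA intensities (robust multi-array average, a background-corrected and quantile-normalized array signal). Median intensities lay between 859.1 and 887.0 on the 6 arrays. Averaged over arrays, the features fell into a dim and a bright group, called the low and high mode, divided by a density minimum at log2 7.12. Between 33.0% and 33.4% of an array's features lay in the low mode, where a signal may be background. Leaf markers matched whole plants, with 5 of 5 in the high mode, and root and flower markers were also present, with 4 of 5 and 5 of 5 in the high mode. Seed markers had 4 of 5 in the low mode. MYBPAR replicate 2 stood apart in a morning clock gene chosen after its values were seen: CCA1 was at 7.54 there and between 11.62 and 13.50 on the other 5 arrays.

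AT2G38900 was high in all 3 MYBPAR lines and near the bottom of the array's range in all 3 empty vector lines. Its intensity was 1377, 735.4 and 529.0 units in MYBPAR replicates 1, 2 and 3, and 14.2, 15.2 and 13.6 units in empty vector replicates 1, 2 and 3. On the log2 scale these values are 10.43, 9.52 and 9.05 against 3.82, 3.93 and 3.76. The groups did not overlap, and the lowest MYBPAR line stood 5.12 log2 units above the highest empty vector line. The group means were 9.67 ± 0.70 (SD, n = 3) and 3.84 ± 0.08 (SD, n = 3), a log2 difference of 5.83 (SE 0.34). Because the empty vector signal may be background, a fold can be given only as a bound. Against control values set to 7.12, the minimum between the modes, the MYBPAR group mean was at least 5.85-fold higher. This bound holds for the mean of the log2 values and not for each line, as replicate 3, at 9.05, lay below that mean.

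This difference ranked number 2 in size among all features, after that of BAN. In the empty vector lines 6.66% of features had a lower mean than AT2G38900, and in the MYBPAR lines 49.1% did. Few features lay in different modes in the 2 groups: 33 features (0.0889%) had all 3 empty vector values below the minimum and all 3 MYBPAR values above it, and 5 features did the opposite. The median log2 difference of the 33 was 0.67, and 12 of them had a difference above 1.

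The MYBPAR lines also differed from each other in AT2G38900. Replicate 1 was highest, 0.76 log2 units above the group mean, while replicate 2 was 0.14 and replicate 3 was 0.62 below it (deviations of -0.14 and -0.62). The SD of 0.70 was larger than that of 95.1% of the 3028 features whose MYBPAR mean lay within 0.5 log2 units of it, for which the median SD was 0.19. In the empty vector lines the SD of 0.08 was smaller than usual, with 8.72% of the 4313 features of like mean below it and a median SD of 0.24.

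**Figure D1:**
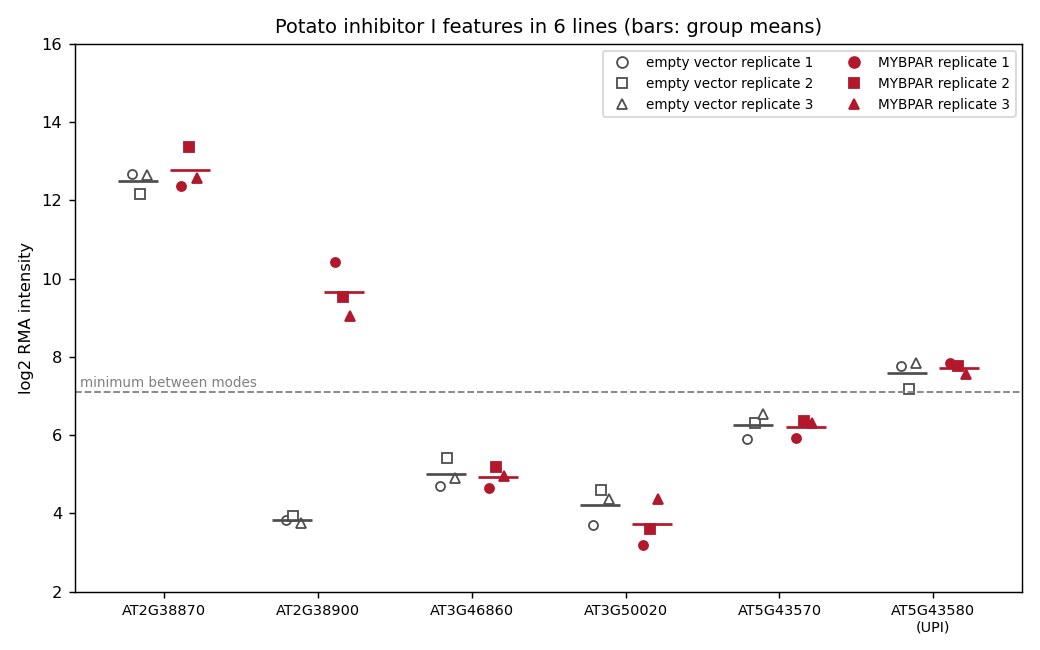
Log2 RMA intensity of the 6 potato inhibitor I features in each line; open grey symbols are empty vector lines, filled red symbols MYBPAR lines, bars group means (n = 3) and the dashed line the minimum between the modes at 7.12. AT2G38900 lies between 9.05 and 10.43 in the MYBPAR lines and between 3.76 and 3.93 in the empty vector lines, and the groups overlap for the other 5 features.

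None of the other 5 family members passed the test. Limma with Benjamini-Hochberg adjustment over all 37118 features called 2 features in all (0.00539%), and 0 of these 5, with adjusted p-values from 0.915 to 0.975. At an unadjusted p under 0.05 the count was also 0 of 5, where 4.32% of all features reached it. The groups overlapped in each of the 5, where they did not overlap in 9.99% of all features. With shares this low over all features, counts of 0 among 5 features say little about the family. Their median log2 difference was -0.05, with 2 of 5 above 0, and all features had a median of 0.02 with 53.7% above 0. The upper 95% bounds of the 5 differences lay between 0.36 and 0.99 log2 units. AT2G38900 was chosen for its large difference, so setting these bounds against it would be no test. For the 3 members in the low mode the bounds describe a signal that may be background. With 3 lines a group, an exact permutation test of a single gene cannot go below p = 0.1.

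AT2G38870, a relative on the same chromosome as AT2G38900, gave a strong signal in every line. Its log2 value was 12.36, 13.38 and 12.57 in MYBPAR replicates 1, 2 and 3, and 12.67, 12.17 and 12.66 in empty vector replicates 1, 2 and 3. MYBPAR replicate 2 was the highest array and empty vector replicate 2 the lowest, and the other 4 lay between 12.36 and 12.67. The log2 difference of 0.27 (SE 0.29, 95% interval -0.44 to 0.99; limma, adjusted p = 0.920) changed with the lines used. It was -0.03 without MYBPAR replicate 2, 0.11 without empty vector replicate 2 and 0.48 without MYBPAR replicate 1. The CCA1 value that set this array apart is given above, and its part in the level of AT2G38870 was not tested.

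UPI (AT5G43580) lay just above the minimum between the modes. Its log2 value was 7.84, 7.76 and 7.56 in MYBPAR replicates 1, 2 and 3 against 7.76, 7.18 and 7.85 in empty vector replicates 1, 2 and 3. The groups overlapped, with empty vector lines at both ends of the range. The log2 difference was 0.12 (SE 0.20, 95% interval -0.37 to 0.61; limma, adjusted p = 0.937).

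AT5G43570 is the next gene to UPI on the chromosome and stood in the low mode on all 6 arrays. It had log2 values of 5.92, 6.36 and 6.32 in MYBPAR replicates 1, 2 and 3 and of 5.92, 6.30 and 6.53 in empty vector replicates 1, 2 and 3. The lines of both groups covered almost the same range, and the log2 difference was -0.05 (SE 0.20, 95% interval -0.54 to 0.44; limma, adjusted p = 0.975).

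AT3G46860 and AT3G50020, both on chromosome 3, were also in the low mode in every line. AT3G46860 had log2 values of 4.64, 5.18 and 4.96 in MYBPAR replicates 1, 2 and 3 against 4.70, 5.41 and 4.91 in the empty vector replicates 1, 2 and 3. Its log2 difference was -0.08 (SE 0.23, 95% interval -0.62 to 0.47; limma, adjusted p = 0.966), and the groups overlapped. AT3G50020 was at 3.21, 3.60 and 4.37 in MYBPAR replicates 1, 2 and 3, and at 3.71, 4.60 and 4.37 in empty vector replicates 1, 2 and 3.

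The difference of AT3G50020 was -0.50 on the log2 scale (SE 0.36, 95% interval -1.37 to 0.36; limma, adjusted p = 0.915), the farthest from 0 of these 5. It did not exceed the spread between lines, and 7.23% of all features had a larger absolute difference. For the 3 members in the low mode a change of a weak transcript below the background would not have been detectable.

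**Figure D2:**
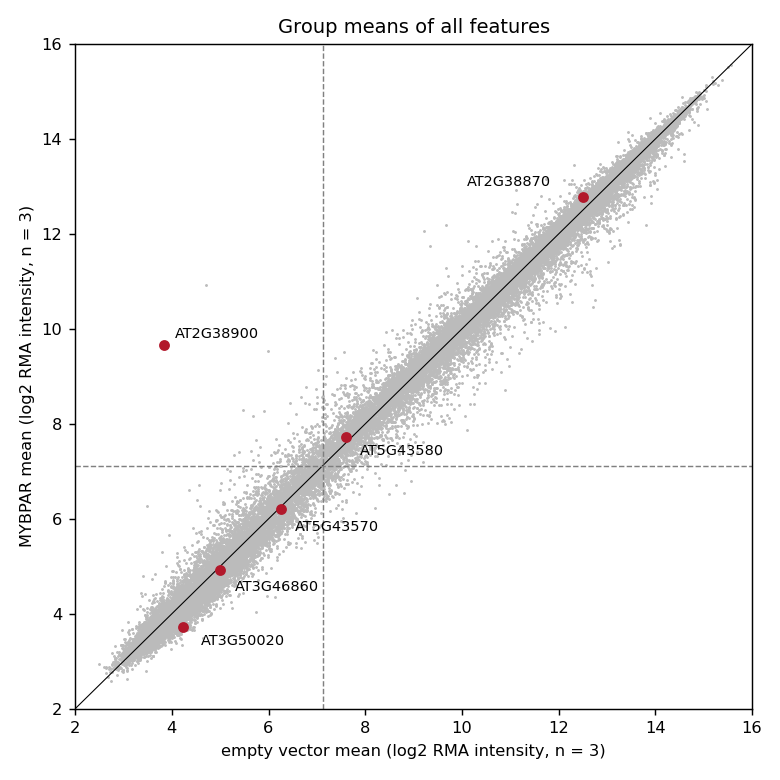
Group mean in the MYBPAR lines against group mean in the empty vector lines, both as log2 RMA intensity (n = 3 each), for all 37118 features in grey and the 6 potato inhibitor I features in red; the diagonal marks equal means and the dashed lines the minimum between the modes at 7.12. AT2G38900 lies far above the diagonal at 3.84 and 9.67, and the other 5 members lie within the grey band.

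The position of the genes on the chromosomes was set beside these values. The 6 loci lie on chromosomes 2, 3 and 5, and AT2G38870 and AT2G38900 are separated by 3 genes in the RefSeq gene table. Of the 19 genes within 2 places of a member, 16 had a feature, and a gene with several was represented by the brightest. Limma called 0 of these 16 (smallest adjusted p = 0.915), which says little where it called 0.00539% of all features. An unadjusted p under 0.05 was reached by 2 of 16, where 4.32% of all features reached it. The groups did not overlap in 2 of 16, YLS5 and AT2G38905, where they did not overlap in 9.99% of all features. Their log2 differences ran from -0.10 to 1.02 with a median of 0.09, and 13 of 16 were above 0, where 53.7% of all features were.

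The neighbour with the largest difference was the gene directly after AT2G38900. AT2G38905 had log2 values of 5.16, 5.96 and 5.19 in MYBPAR replicates 1, 2 and 3 and of 3.97, 4.56 and 4.72 in empty vector replicates 1, 2 and 3. All 3 MYBPAR lines were above all 3 empty vector lines, with every value in the low mode. The difference was 1.02 (SE 0.29; limma, adjusted p = 0.915) and did not pass the test.

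On the other side, AT2G38890 also lay in the low mode throughout. It was at 5.02, 4.30 and 4.01 in MYBPAR replicates 1, 2 and 3 against 4.03, 3.58 and 3.86 in the empty vector lines, a difference of 0.62 (SE 0.28; limma, adjusted p = 0.915). The groups overlapped, by the lowest MYBPAR and the highest empty vector line. CPK20, a calcium-dependent protein kinase gene after AT2G38905, had 0.05 (SE 0.19). NF-YB1, a subunit of the CCAAT-binding factor NF-Y between the family members, had 0.06 (SE 0.12) for the brightest of its 6 features. YLS5, a gene named for its expression in yellow leaves, was the other neighbour under an unadjusted p of 0.05, with a difference of 0.32 (SE 0.11; limma, adjusted p = 0.915).

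The neighbours of the members on chromosomes 3 and 5 had log2 differences between -0.08 and 0.31. Beside AT3G46860, AT3G46850 had -0.04 (SE 0.26) and AT3G46870 had 0.29 (SE 0.20). Around AT3G50020, CKA2, a catalytic subunit of casein kinase, had 0.00 (SE 0.10), AT3G50010 0.09 (SE 0.21), AT3G50030 0.25 (SE 0.16) and AT3G50040 0.21 (SE 0.16). Around UPI and AT5G43570, AT5G43550 had 0.08 (SE 0.18), AT5G43560 0.02 (SE 0.11), AT5G43590 0.31 (SE 0.27) and UAH, a ureidoglycolate amidohydrolase gene, -0.08 (SE 0.13). AT2G38840, before YLS5, had -0.10 (SE 0.10).

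**Figure D3:**
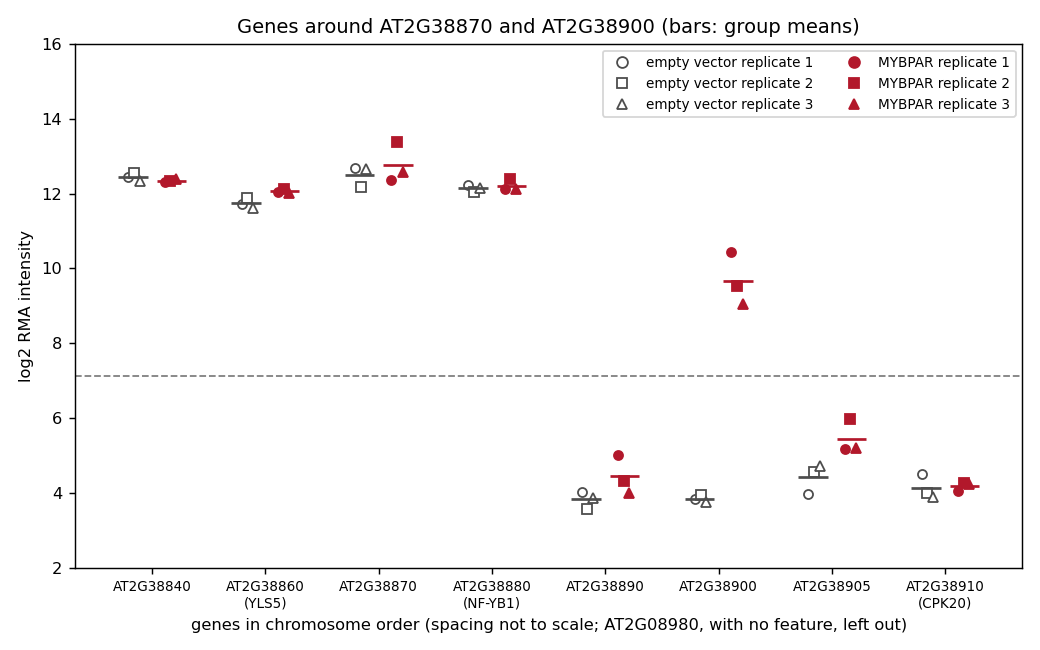
Log2 RMA intensity by line for the genes around AT2G38870 and AT2G38900 in chromosome order, not to scale; open grey symbols are empty vector lines, filled red symbols MYBPAR lines, bars group means (n = 3), and the dashed line marks 7.12. The MYBPAR lines of AT2G38900 stand between 9.05 and 10.43 while AT2G38890 and AT2G38905 on either side stay at or below 5.96.

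The features whose values over the 6 lines lay closest to those of AT2G38900 were found by the root mean square distance of log2 values taken relative to the empty vector mean. This distance is not scaled, so only features with a large difference can be near, and it largely repeats the ranking by size. In that ranking AT2G38900 was number 2, after BAN. BAN was nearest at a distance of 0.28 log2 units. It encodes anthocyanidin reductase, an enzyme of proanthocyanidin synthesis. Its MYBPAR lines deviated from their mean by 0.78, -0.29 and -0.49 in replicates 1, 2 and 3, where those of AT2G38900 deviated by 0.76, -0.14 and -0.62. Replicate 1 was thus the highest and replicate 3 the lowest for both transcripts, an order over 3 lines for which no test was made.

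GSTF5, a phi-class glutathione transferase gene, came next at a distance of 1.62. Its log2 values of 10.24, 9.20 and 9.19 in MYBPAR replicates 1, 2 and 3 were again highest in replicate 1, against 6.12, 5.93 and 5.93 in the empty vector lines. The remaining 3 of the 5 nearest were much farther from AT2G38900, so their profiles differed from it in size or order. AT1G56100 lay at 2.29, with 8.45, 5.59 and 4.76 in MYBPAR replicates 1, 2 and 3. RLP38, a receptor-like protein gene, lay at 2.57 and was highest in MYBPAR replicate 2, at 9.76. AT2G42860 lay at 2.60, with 7.61, 6.84 and 5.72 in MYBPAR replicates 1, 2 and 3. The order of the MYBPAR lines given for BAN was thus also that of GSTF5, AT1G56100 and AT2G42860. In GSTF5, replicates 2 and 3 were almost equal.

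**Figure D4:**
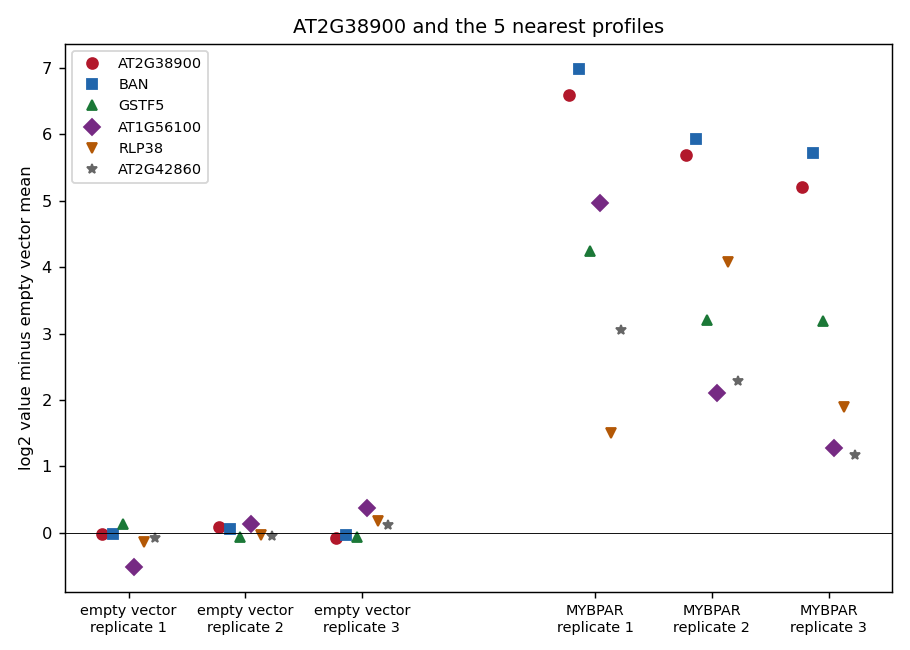
Log2 value minus the mean of the 3 empty vector lines, in each of the 6 lines, for AT2G38900 and the 5 features with the smallest root mean square distance to it; each symbol is 1 feature on 1 array. In the MYBPAR lines AT2G38900 (red) stands at 6.59, 5.68 and 5.21 and BAN (blue) at 6.98, 5.92 and 5.72, above the other 4.

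Other classes of plant protease inhibitor were set beside the family, with a locus of several features represented by the brightest. Of 28 genes in 4 classes, limma called 0, where it called 0.00539% of all features. With so few features called, 0 called in a short list says little, here and in the lists below. At an unadjusted p under 0.05 the count was also 0 of 28, where 4.32% of all features reached it. The groups overlapped in each of the 28, where they did not overlap in 9.99% of all features. The median log2 difference of the 28 was 0.02, and 15 of 28 were above 0.

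Kunitz inhibitors, which act on serine proteases such as trypsin, had 3 of 7 above 0 and a median log2 difference of -0.31, which lay between -0.44 and -0.13 when 1 sample was left out. DR4, named as a drought-repressed gene, was bright in every line, at 14.16, 13.77 and 13.75 in MYBPAR replicates 1, 2 and 3 and between 14.15 and 14.28 in the empty vector lines, a difference of -0.31 (SE 0.14; limma, adjusted p = 0.915). AT1G73325 had 0.80 (SE 0.45; limma, adjusted p = 0.915). AT1G72290 had the largest difference of the 28, 1.61 (SE 0.95), and was named after its values were seen. It was at 7.71 and 7.67 in MYBPAR replicates 2 and 3 but at 4.46 in replicate 1, the line in which AT2G38900 was highest, and at 4.18, 4.95 and 5.89 in the empty vector lines.

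Among the 6 trypsin inhibitors of the mustard type, 3 were above 0, with a log2 median of 0.00. AT2G43550 had 0.29 (SE 0.29; limma, adjusted p = 0.919) and AT1G47540 -0.20 (SE 0.17; limma, adjusted p = 0.915). Serpins, which trap proteases by a change of their own fold, had 5 of 8 above 0 and a median of 0.08, with 7 of 8 in the low mode. SERPIN1, an inhibitor of cysteine proteases in Arabidopsis, had 0.26 (SE 0.14; limma, adjusted p = 0.915), and SRP3 had 0.50 (SE 0.51; limma, adjusted p = 0.919). Cystatins, inhibitors of papain-type cysteine proteases, were all in the high mode, with 4 of 7 above 0 and a median of 0.09. The cystatins with the smallest p were AT5G05110 at -0.18 (SE 0.13; limma, adjusted p = 0.915) and CYSA at -0.24 (SE 0.19; limma, adjusted p = 0.915).

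**Figure D5:**
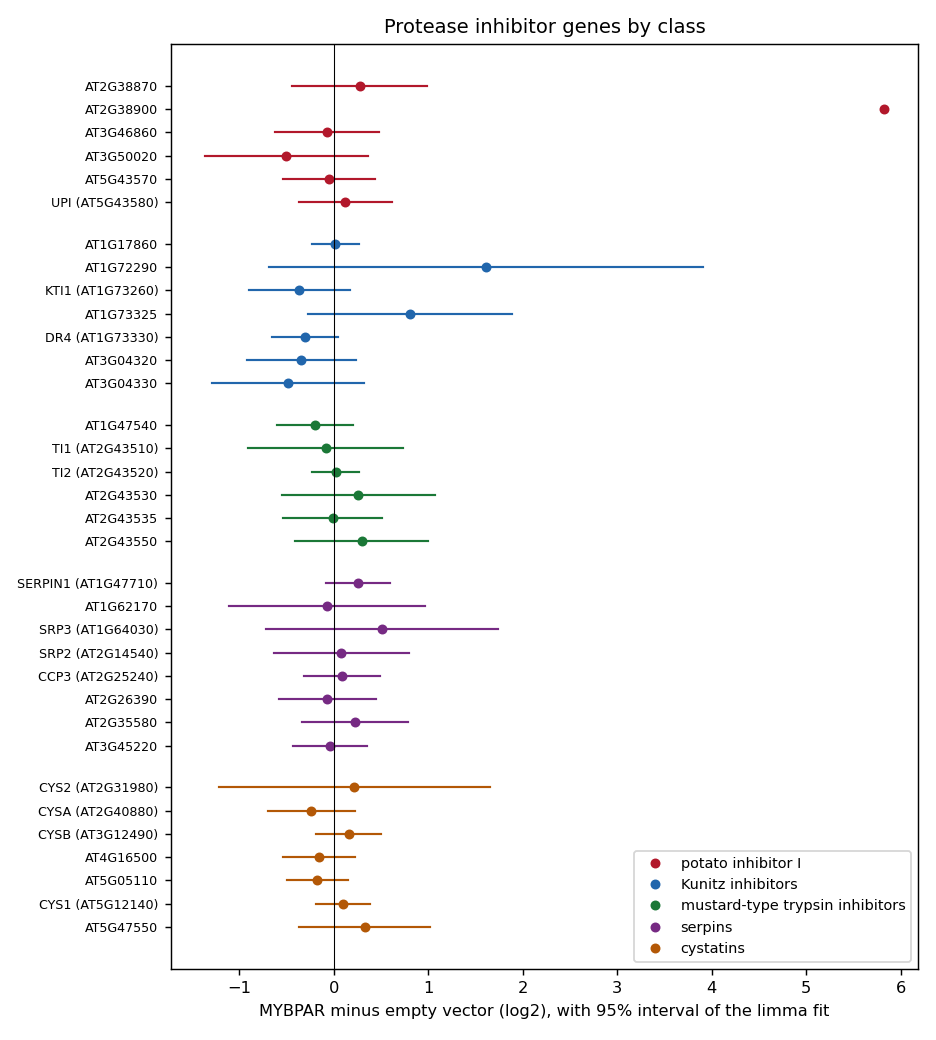
Log2 difference (MYBPAR minus empty vector, 3 lines each) of the potato inhibitor I features and of 28 genes in 4 other classes of protease inhibitor; bars are 95% intervals of the limma fit, left out for AT2G38900, whose difference is a description. AT2G38900 stands at 5.83 and the other 33 genes between -0.50 and 1.61.

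Subtilases are serine proteases of the subtilisin type, the type that potato inhibitor I proteins are known to inhibit. In a list of 15 plant subtilases limma called 0, with 9 of 15 above 0 and a median log2 difference of 0.06. SBTI1.1 had 0.26 (SE 0.14; limma, adjusted p = 0.915) and AIR3, a gene of lateral root emergence, 0.16 (SE 0.10; limma, adjusted p = 0.915). SBTI1.1 was the 1 subtilase of 15 whose groups did not overlap, where 9.99% of all features did not.

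Jasmonate and wound genes, the setting in which the family is best known, gave 0 of 12 called, with 7 of 12 above 0 and a median of 0.07. In 3 of 12 the groups did not overlap, where 9.99% of all features showed this, and all 3 (TAT3, LOX2 and VSP1) were higher in the MYBPAR lines. LOX2, a lipoxygenase gene of jasmonate synthesis, had a log2 difference of 0.25 (SE 0.16) and VSP1, a vegetative storage protein gene, 0.28 (SE 0.14), and neither passed the test; both were named after their values were seen. TAT3, a wound-responsive tyrosine aminotransferase gene, had log2 values of 6.26, 6.33 and 5.94 in MYBPAR replicates 1, 2 and 3 against 5.60, 4.54 and 5.80, a difference of 0.86 (SE 0.34; limma, adjusted p = 0.915) in the low mode. JAZ5, a repressor of jasmonate signalling, had -1.27 (SE 0.54; limma, adjusted p = 0.915). It was at 11.36, 9.97 and 9.11 in MYBPAR replicates 1, 2 and 3 and between 11.10 and 11.65 in the empty vector lines. PDF1.2 had the difference farthest from 0 of the 12, -1.34 (SE 0.92). The other genes below 0 were JAZ10 at -0.65 (SE 0.48), MYC2 at -0.51 (SE 0.31) and AOS at -0.36 (SE 0.18). The groups overlapped in each of these, and they were named after their values were seen.

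The mean of the 12 jasmonate and wound genes, relative to the empty vector mean, was -0.13, 0.07 and -0.44 in MYBPAR replicates 1, 2 and 3. This mean was highest in replicate 2, where AT2G38900 was highest in replicate 1, and a relation between them was not tested. The 5 other pathogenesis-related proteins had 4 above 0, a median of 0.33 and 0 called, and without empty vector replicate 2 the median was -0.05. PR5, a thaumatin-like protein, had 0.57 (SE 0.24; limma, adjusted p = 0.915), and the salicylate marker PR1 had 0.86 (SE 1.02; limma, adjusted p = 0.920). The relative mean of these 5 was 0.48, 0.12 and 0.43 in the MYBPAR lines and 0.64, -0.70 and 0.06 in the empty vector lines, so the control lines spread more widely than the MYBPAR lines.

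Organ markers were read because a whole-plant sample cannot tell fewer cells of a type from less RNA per cell. Flower markers had 5 of 5 log2 differences above 0, a median of 0.68 and 0 called, with AP1 at 0.80 (SE 0.35; limma, adjusted p = 0.915) and AP3 at 0.95 (SE 0.51; limma, adjusted p = 0.915). The median was 0.29 without empty vector replicate 1 and 1.04 without MYBPAR replicate 1. Their summed intensity ran from 4030 to 7935 units in the MYBPAR lines and from 2233 to 5830 in the empty vector lines. Relative to the empty vector mean, the flower list stood at 0.10 in MYBPAR replicate 1, where AT2G38900 was highest, at 0.92 and 1.12 in replicates 2 and 3, and at 0.83 in empty vector replicate 2, where AT2G38900 was at 3.93.

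Leaf markers had a median of 0.03, and their summed intensities were 137629 to 142421 units against 131144 to 141769. Among them RBCS3B had 0.09 (SE 0.11; limma, adjusted p = 0.920) and RBCS1A 0.09 (SE 0.12; limma, adjusted p = 0.925), both of the small subunit of Rubisco. Root markers had a median of 0.05, with 49037 to 51857 units against 51126 to 55280. WOX5, which marks the quiescent centre of the root tip, lay in the low mode and had 0.48 (SE 0.12; limma, adjusted p = 0.915), and AT4G30170 had -0.33 (SE 0.21; limma, adjusted p = 0.915). Seed markers had a median of 0.21, with 771 to 867 units against 533 to 878, and the oleosin genes OLEO1 and OLEO4 had 0.37 (SE 0.31; limma, adjusted p = 0.915) and 0.20 (SE 0.28; limma, adjusted p = 0.924). None of the 20 organ markers was called, and the part of organ makeup in the level of AT2G38900 was not tested beyond these values.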

How the data were processed

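Total RNA of 6 samples was measured on single-colour (Cy3) arrays, all on 1 slide by their array names. Per the submitters' processing notes, the deposited intensity values came from RMA, and they are on a linear scale. Software version, probe annotation and genome build were not given in the sources used here. The series table holds deposited log2 values, which differed from log2 of the intensities by at most 1.66e-06. Features had 3 or 4 probes for the 6 members. Locus names follow RefSeq (TAIR10.1), used for names and gene order only; all 6 members matched.

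Log2 intensities were fitted with limma 3.58.1 (R 4.3.3; lmFit, eBayes) over all 37118 features, MYBPAR minus empty vector, with Benjamini-Hochberg adjustment and a threshold of 0.05. The model was tested on simulated data. The number of arrays limits the precision; p-values measure the spread between lines. The members and lists were chosen with earlier results of these data known. Named were all members, BAN, the 5 nearest features, 2 neighbours on each side of a member and, from each list, the 2 members with the smallest p where none passed. In all, 15 alternatives were run, listed in the closing section.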

Additional observations from a re-analysis of the deposited data

How the results depend on the processing

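The tests were repeated with array weights, with a replicate block, with a pseudocount of 32, on the series table, after another quantile normalization or median centring, without the dimmest 25% of features, with a robust and trended eBayes or no moderation at all, and without each of the 6 samples. The AT2G38900 log2 difference was above 0 in all 15, but the family was chosen by this difference, so its direction is no support. The series table, either eBayes variant, the replicate block and the removal of dim features leave a difference of group means as it is. In the 6 fits that left out 1 sample the AT2G38900 difference lay between 5.45 and 6.14. It was 4.19 with log2(value + 32), which raises values near background by construction, and between 5.68 and 5.84 under the other 8 settings. None of the other members was called under any alternative that tested it, with adjusted p (limma) from 0.713 to 1. Each alternative called only 0 to 3 features over the whole array, so 0 called among the members says little. At an unadjusted p under 0.05 (limma) the count of other members was 1 without MYBPAR replicate 3 and 0 under each other alternative. AT3G46860 and AT3G50020 were among the dimmest features, so without these 3 of the 5 were tested.

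Their small differences changed sign in 6 of 73 values, all on leaving out 1 sample, with ranges of -0.03 to 0.48 for AT2G38870, -0.23 to 0.13 for AT3G46860, -0.22 to 0.09 for AT5G43570 and -0.09 to 0.25 for AT5G43580; AT3G50020 stayed between -0.82 and -0.24. The count of 2 features called over the whole array was 0 with no moderation (1476 at an unadjusted p under 0.05), 0 with the replicate block (2189 likewise) and 0 to 3 on leaving out 1 sample: 0 without MYBPAR replicate 2 or 3 or any 1 empty vector replicate, and 3 without MYBPAR replicate 1. The cause was not tested. Whether the replicate numbers of the labels pair the samples was not settled by their deviations. The r across features was 0.30, -0.06 and 0.24 for numbers 1, 2 and 3. Of the 6 samples, 3 correlated best with their own number. With the replicate block AT2G38900 had 5.83 (SE 0.28), where the main fit had an SE of 0.34. The 2189 features at an unadjusted p under 0.05 with the block compare with 1602 in the main fit. The list medians moved by less than the larger within-group SD of the list mean in 165 of 165 values. This is a wide measure, which let some medians change sign, and several of the settings cannot move a median. Leaving out 1 sample gave medians of 0.29 to 1.04 for flower, 0.13 to 0.35 for seed, -0.02 to 0.10 for root and 0.01 to 0.05 for leaf markers, -0.05 to 0.46 for pathogenesis-related, 0.03 to 0.11 for jasmonate and wound and 0.01 to 0.13 for subtilase genes, and -0.44 to -0.13 for Kunitz inhibitors, -0.15 to 0.13 for mustard-type inhibitors, 0.03 to 0.28 for serpins and -0.07 to 0.12 for cystatins. Without the dimmest 25% the serpin median, over 3 genes, was -0.07.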

Other observations

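SBT5.4, a subtilase gene chosen after its values were seen, had the widest range of the 15 subtilases. Its log2 value was 7.70, 10.34 and 10.61 in MYBPAR replicates 1, 2 and 3 and 5.91, 10.30 and 8.27 in empty vector replicates 1, 2 and 3. The flower markers, relative to their empty vector mean, stood at 0.10, 0.92 and 1.12 and at -0.83, 0.83 and 0.00 in the same order. Both were lowest in empty vector replicate 1 and highest in MYBPAR replicate 3, and for both the groups overlapped. In these empty vector lines AT2G38900 was at 3.82, 3.93 and 3.76, and a relation between them was not tested.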
